A study of Mus musculus with 6 samples.

Results

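Retinol and retinoic acid metabolism was followed through 9 genes in the epididymal white adipose tissue of mice made to lack CNOT3 in adipocytes. These were Rbp4, Stra6, Crabp1, Rdh10, Rdh11, Rdh12, Dhrs3, Aldh1a1 and Aldh1a3, out of 18193 genes that had a probe set naming them alone. Every probe set that named 1 of the 9 and no other gene was taken, which gave 14 of the 45037 probe sets on the array. The tissue came from 3 wild-type mice (WT) and 3 knockout mice (CNOT3KO), all of the C57BL/6 strain and 8 weeks old, with 1 Affymetrix array per mouse. In the knockout mice, expression of Cre recombinase from the Adiponectin promoter, active in adipocytes, had removed Cnot3, which encodes a subunit of CCR4-NOT, the main deadenylase of cytoplasmic mRNA. Other cells of the fat pad keep the gene in this model. The labels call the controls wild type and do not say whether they carried a floxed allele.

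Retinol, or vitamin A, circulates bound to retinol binding protein (Rbp4), and can enter cells through the receptor STRA6. Inside the cell it is oxidised reversibly to retinal, in which RDH10 runs mainly forward and RDH11, RDH12 and DHRS3 mainly run back to retinol. Aldehyde dehydrogenases such as ALDH1A1 and ALDH1A3 then turn retinal into retinoic acid irreversibly. Retinoic acid is bound in the cytosol by proteins such as CRABP1, acts through the nuclear receptors RAR and RXR, and is broken down by CYP26 enzymes. Adipose tissue stores retinyl esters, secretes RBP4, and its adipocytes respond to both retinal and retinoic acid.

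The 9 genes were selected on their measured signals in these WT and CNOT3KO arrays, so their values are given as a description. Calls of members from the fit over all genes restate that selection and support nothing further. Signals are MAS5 intensities on a linear scale, and log2 differences are CNOT3KO minus WT on log2(signal + 22.5), where 22.5 is the 25th percentile of all values. Fold values are on the same scale, and standard errors (SE) come from limma. Levels of different probe sets are not compared with each other, because probes differ in their response. Rdh12, Rdh11 and Aldh1a3 were higher in CNOT3KO, Rbp4 and Aldh1a1 were lower, Rdh10 and Dhrs3 were not called, and Stra6 and Crabp1 were too dim to be judged. A gene was called when its limma p, adjusted by Benjamini-Hochberg over 12769 tested genes, was under 0.05. A gene was tested when its brightest probe set had a mean signal of at least 51.6, the 40th percentile, over the 6 arrays. Of the 9 members 7 were tested, and Rdh12 passed this filter only through the knockout arrays. By this rule 3 members were called higher, where 23.2% of all tested genes were, and 2 were called lower, where 16.9% of all tested genes were. In either direction 40.1% of tested genes were called, so a call by itself sets no member apart. Centring arrays on their median tested gene turned the overall split from 2959 higher and 2156 lower genes to 2318 higher and 2800 lower. The groups did not overlap in 9 of the 14 probe sets, with 7 above and 2 below WT, where 36.9% of all single-gene probe sets were without overlap, 18.4% above and 18.5% below.

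**Figure D1:**
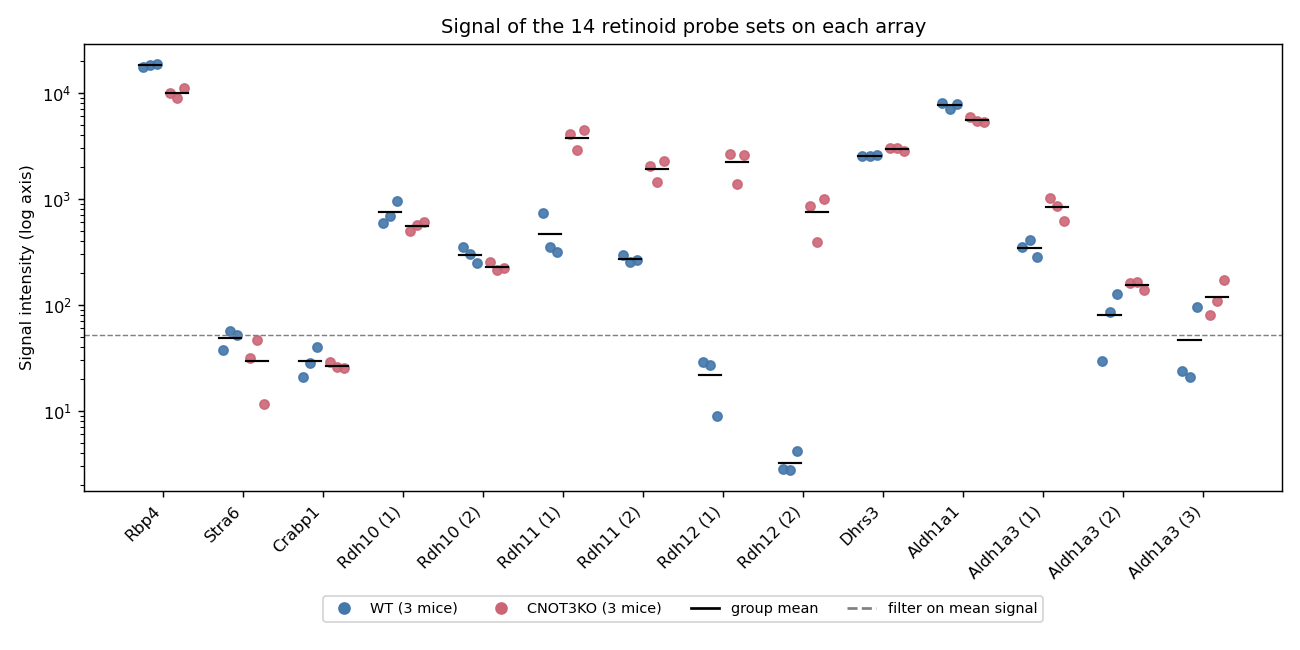
Signal intensity of the 14 probe sets on a log axis, with 1 point per array (WT blue, CNOT3KO red), a black bar at each group mean and a dashed line at the filter of 51.6. A number in brackets after a gene counts its probe sets from the brightest. The Rdh12 probe sets go from below 30 in WT to between 386 and 2666 in CNOT3KO, and Rbp4 is at 10003 against 18180 on average.

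The deleted gene was lower in the knockout tissue, and adipocyte genes were abundant in both groups. Cnot3 read 301 ± 7.02 (SD, n = 3) in WT and 201 ± 25.6 in CNOT3KO by its brightest probe set. Its log2 difference was -0.54, and -0.36 with its probe sets averaged. Adipoq, the gene for adiponectin, read 28794 ± 6538 and 26934 ± 4407 (SD, n = 3), with overlapping groups. Of 12 tested adipocyte markers, 4 were called lower, 0 higher. Of 18 macrophage markers 15 were called higher and 1, Mertk, lower, and of 13 endothelial markers 13 were called lower. Summed over each marker list, the signal of the adipocyte genes was 166877 to 208156 in WT and 145219 to 174744 in CNOT3KO. That of the macrophage genes was 32997 to 42539.9 and 68543 to 94794, and that of the endothelial genes was 21468 to 22116 and 7629 to 8762. Progenitor and fibroblast genes summed to 46397 to 54905 and 57718 to 65746, with 4 of 11 called higher and 3 lower. Mesothelial genes summed to 6575 to 8234 and 4157 to 5996, with 5 of 11 called lower. Epididymis genes summed to 224 to 239 in WT and 252 to 287 in CNOT3KO over 7 genes, of which 1, Rnase10, was tested and called higher. Testis genes summed to 1309 to 2227 in WT and 1497 to 1916 in CNOT3KO over 11 genes, with 2 tested and 0 called. Most of that sum was Sycp3, at 1227 ± 548 and 1248 ± 164 (SD, n = 3), and 9 of the genes were under the filter. In whole tissue, fewer cells of a type and less RNA per cell cannot be told apart, and the part of these cell type shifts in the member values was not tested.

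The carrier Rbp4 was lower in the knockout fat pad. Its probe set read 17660.2, 18337 and 18544 in the 3 WT mice and 9995, 8996 and 11017 in the 3 CNOT3KO mice. Every knockout array therefore lay below every WT array, with little spread inside either group. The means were 18180.4 ± 462 and 10003 ± 1011 (SD, n = 3 each), and the knockout stood at 55.0% of WT (log2 -0.87, SE 0.11). Over the 19 alternatives the log2 difference stayed between -0.96 and -0.79. Several of them, such as other filters and other eBayes options, cannot move this value. Leptin (Lep), another adipocyte secretory product, read 10667 ± 746 and 4489 ± 655 (SD, n = 3), or 42.1% of WT. Lep was among the 4 of 12 tested adipocyte markers called lower, and the other 8 were not called. Among those 8, the secreted products Adipoq and Retn had log2 differences of -0.08 and -0.09.

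The retinol receptor Stra6 and the retinoic acid carrier Crabp1 gave dim signals. Stra6 read 37.3, 56.5 and 51.6 in WT and 31.2, 46.3 and 11.7 in CNOT3KO. Crabp1 read 20.8, 28.1 and 40.3 in WT and 29.1, 25.8 and 25.1 in CNOT3KO. Both sets of values overlapped between the groups and had mean signals under the filter. No difference was detectable at this signal, which does not show that the levels were equal.

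Rdh10, the dehydrogenase that oxidises retinol to retinal, had lower means in CNOT3KO by both of its probe sets. The brighter probe set read 595, 691 and 953 in WT and 496, 567 and 606 in CNOT3KO (log2 difference -0.39, SE 0.17). The dimmer one read 347, 298 and 245 in WT and 250.4, 213 and 222 in CNOT3KO (log2 difference -0.34, SE 0.16). In both, 1 WT array fell inside the range of the knockout arrays. The order of the WT mice was opposite between the probe sets, with mouse 3 highest in one and lowest in the other. Rdh10 was not called, but it was when its probe sets were averaged (log2 -0.36), with array weights (-0.48), with the mouse number as a block (-0.39) and without WT mouse 1 (-0.53).

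The retinal reductase genes Rdh11 and Rdh12 had the largest log2 differences among the members. Rdh12, known best as a retinal reductase of photoreceptors, read 28.9, 26.9 and 8.89 in WT and 2666, 1381 and 2596 in CNOT3KO by its brighter probe set. The dimmer probe set read 2.80, 2.74 and 4.16 in WT and 850.0, 386 and 1003 in CNOT3KO. Rdh12 thus went from signals near or below the offset in every WT mouse to clear signals in every knockout mouse. The log2 difference was 5.64 (SE 0.27), or 49.8-fold, by the first probe set and 4.79 (SE 0.31), or 27.8-fold, by the second. These sizes rest on the offset because WT was so dim: the first was 6.72 with an offset of 1 and 4.34 with an offset at the median of all values.

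Rdh11, a broadly expressed retinal reductase of the same family, was already measurable in WT. Its brighter probe set read 734, 348 and 311 in WT and 4049.7, 2868 and 4413 in CNOT3KO. Its dimmer probe set read 292, 252 and 261 in WT and 2032, 1422 and 2254 in CNOT3KO. The higher value of WT mouse 1 was seen by the brighter probe set and not to the same extent by the dimmer one. Log2 differences were 3.04 (SE 0.28) and 2.70 (SE 0.17), or 8.23-fold and 6.50-fold, and the first was 3.41 without WT mouse 1. None of the 14 member probe sets had the _x_at or _s_at name that marks probes shared with other sequences, although cross-hybridisation between these paralogs was not tested.

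The 3 knockout mice kept the same low array in both genes. CNOT3KO mouse 2 read 75.9% and 74.8% of the knockout mean in the Rdh11 probe sets and 62.4% and 51.7% in the Rdh12 probe sets. Mouse 2 was the lowest knockout array in 40.4% of the 2959 genes called higher. It was at or below 75.9% of the knockout mean in 2.84% of them. That limit is the highest of the 4 Rdh values themselves, so they meet it by construction and this share is no support for their pattern. The summed macrophage markers ran another way, at 85505 in mouse 1, 94794 in mouse 2 and 68543 in mouse 3. Single markers did not all follow the sum. Mouse 2 was the lowest knockout array in Trem2, Fcgr1 and C1qb, and the highest in others such as Adgre1, Cd68 and Gpnmb. The part of macrophage content in Rdh11 and Rdh12 was not tested. This look at mouse 2 was chosen after its values were seen.

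Rdh11 and Rdh12 lie next to each other on mouse chromosome 12. Their promoter windows are shown because both genes differed most and turned out to share a stretch of sequence. Sequences are from RefSeq on GRCm38.p6, from 250 bases before to 50 after the annotated start, 5′ to 3′ on the strand of the gene. The table matched 7 of the 9 members, with 15 windows (Rdh10 and Aldh1a3 were the others). Rdh12 is on the plus strand at chr12:79208663-79208962, and the upstream window of Rdh11 is on the minus strand at chr12:79191806-79192105, with their starts 17.1 kb apart. Capitals mark the match to ACTACANNTCCCAG, where N is any base.
Rdh12 promoter: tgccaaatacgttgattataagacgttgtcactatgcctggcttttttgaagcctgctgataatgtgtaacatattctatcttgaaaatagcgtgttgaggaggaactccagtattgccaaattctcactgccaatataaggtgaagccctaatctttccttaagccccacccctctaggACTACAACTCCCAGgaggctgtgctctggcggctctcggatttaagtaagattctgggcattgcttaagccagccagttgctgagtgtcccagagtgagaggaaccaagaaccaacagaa
Rdh11 promoter: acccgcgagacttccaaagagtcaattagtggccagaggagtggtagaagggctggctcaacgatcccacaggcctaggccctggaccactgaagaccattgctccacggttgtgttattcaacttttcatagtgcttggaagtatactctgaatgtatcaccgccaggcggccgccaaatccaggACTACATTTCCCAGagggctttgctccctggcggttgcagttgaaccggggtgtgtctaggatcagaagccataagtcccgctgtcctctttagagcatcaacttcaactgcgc
Best local alignment of both windows covered 38 aligned bases with 32 identical (84.2%), from base 175 to base 212 of the Rdh12 window, upstream of the start. In the next lines capitals mark identical bases.
Rdh12 stretch: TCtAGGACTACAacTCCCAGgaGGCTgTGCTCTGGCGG
Rdh11 stretch: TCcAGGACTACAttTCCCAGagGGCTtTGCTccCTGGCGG
Among 32850 windows compared with that of Rdh12, 6 others scored at least as high. The 14-letter motif was picked after seeing these sequences, and on either strand it was in 339 of 32851 windows (1.03%), 2 of them among the 15 member windows. Of motifs searched on both strands, the nuclear receptor hexamer AGGTCA was in 1 member window, the other Rdh11 window, and in 16.3% of all. The retinoic acid type repeat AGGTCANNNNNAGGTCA was in 0 member windows and in 0.00913% of all. The repeat AGGTCANAGGTCA of PPAR and RXR was in 0 and in 0.0396% of all, and the sterol element TCACCCCAC in 0 and in 0.551%. The E-box CACGTG was in 1, again the other Rdh11 window, at 2 positions, and in 7.15% of all. An exact match is a description of these letters and says nothing about binding.

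The protein-coding genes around the pair did not all move with it. On the Rdh12 side, Zfyve26, a zinc finger protein of membrane traffic, read 589, 563 and 496 in WT and 1780.0, 1898 and 1930.3 in CNOT3KO (log2 1.73, SE 0.11, limma adjusted p = 1.1e-05). Knockout mouse 2 was not low in Zfyve26, at 101.5% of the knockout mean. Rad51b, a DNA repair gene, came next and read 90.1, 99.8 and 83.9 in WT and 190.5, 95.8 and 189 in CNOT3KO, with mouse 2 inside the WT range (60.5% of the knockout mean). Its log2 difference of 0.62 was not called (limma adjusted p = 0.0697), but it was called without that mouse (0.90) and with array weights (0.77). On the Rdh11 side Vti1b, a vesicle fusion protein, read -0.35 (limma adjusted p = 0.0982), and was called without CNOT3KO mouse 3 (-0.53) and with array weights (-0.50). Pigh read -0.17 and Zfp36l1 -0.07, neither called. Arg2 was under the filter, at 14.2 ± 3.71 in WT and 33.6 ± 11.6 in CNOT3KO (SD, n = 3). The neighbours were taken by their place in the gene order of a RefSeq table of GRCm38.p6, a look that was added after the values of the pair were seen.

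**Figure D2:**
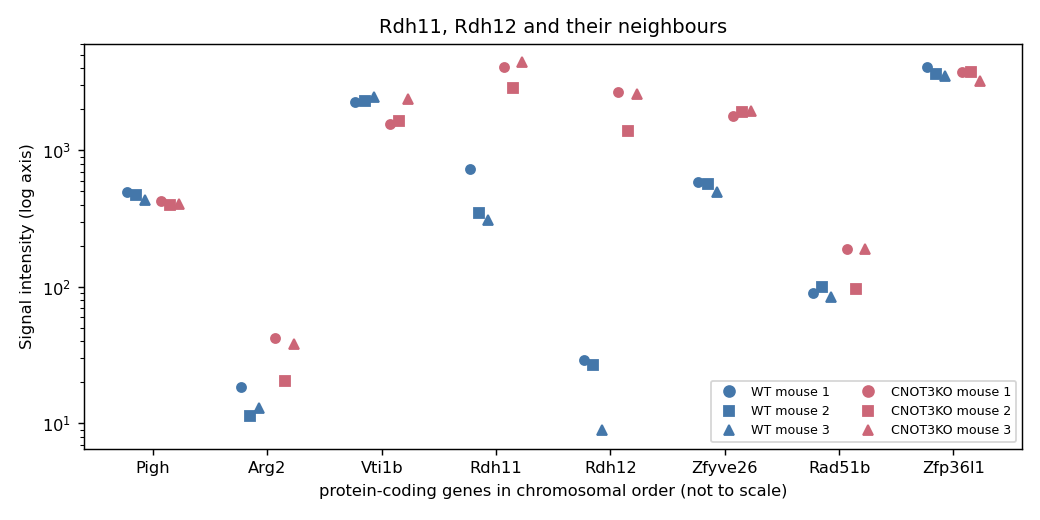
Signal intensity (log axis) of Rdh11, Rdh12 and 3 protein-coding genes on each side, in chromosomal order, with 1 symbol per mouse (WT blue, CNOT3KO red). The square of CNOT3KO mouse 2 is lowest of the red points in Pigh, Arg2, Rdh11, Rdh12 and Rad51b, and Zfyve26 reads 1869 on average in CNOT3KO against 549 in WT.

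Dhrs3, a reductase that returns retinal to retinol and is known to be induced by retinoic acid, had a slightly higher mean in CNOT3KO. It read 2504, 2517 and 2588 in WT and 2981, 3029 and 2804 in CNOT3KO. All knockout arrays lay above all WT arrays, by a small margin. The log2 difference of 0.21 (SE 0.10) was not called, was called with array weights (0.23), and was 0.11 after centring arrays on their median tested gene.

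The enzymes that form retinoic acid differed in opposite directions. Aldh1a1, a retinal dehydrogenase of adipocytes, read 7927, 6945 and 7893 in WT and 5861, 5377 and 5308 in CNOT3KO. The groups did not overlap, and the knockout read 72.7% of WT (log2 -0.46, SE 0.10). Aldh1a3, a second retinal dehydrogenase, read 347, 405 and 281 in WT and 1013, 858 and 621 in CNOT3KO by its brightest probe set (log2 1.2, SE 0.19). The difference was 2.30-fold on the offset scale, and every knockout array lay above every WT array. Its other probe sets were dim: one read 29.6, 84.7 and 126 in WT and 159, 164 and 137 in CNOT3KO, and the other read 23.5, 20.8 and 96.0 in WT and 79.7, 108 and 169 in CNOT3KO. They had log2 differences of 0.90 (SE 0.33) and 1.14 (SE 0.39), the same direction, and the groups overlapped in the last.

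**Figure D3:**
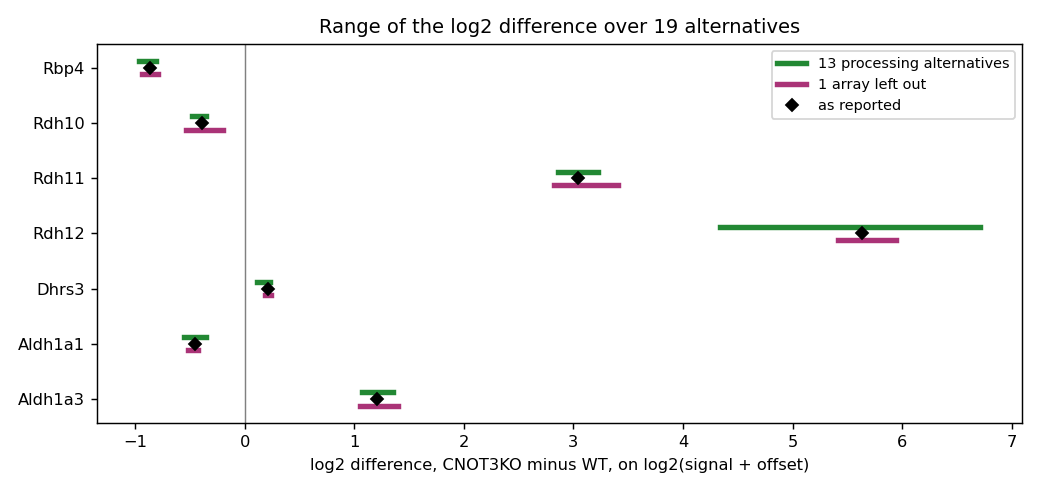
Log2 difference (CNOT3KO minus WT) of the 7 tested members as reported (black diamond), with its range over 13 processing alternatives (green) and over 6 fits that leave out 1 array (purple). Rdh12 has the widest range, 4.34 to 6.72, set by the offset, and none of the ranges crosses 0. Among the processing alternatives, other filters and other eBayes options leave these differences unchanged.

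Other genes of the pathway were read from a list of 56 set by their role. Earlier results of these data were known when the list was chosen. Of the listed genes, none was picked by how it moved. Of these, 32 were tested, 17 were under the filter and 7 had no probe set naming them alone. The test called 5 higher and 6 lower, or 34.4% of those tested, against 40.1% of all genes. Adh4, among the 5 higher, passed the filter only through the knockout arrays. The median log2 difference of the 32 was 0.04, against 0.02 over all tested genes. This list, from which the selected members were left out, thus lay near the background, which does not describe the pathway as a whole. A few sizeable differences lay inside it.

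Among carriers and uptake genes, 1 of 7 rose, 1 fell and 5 did not pass. Fabp5, a fatty acid binding protein that can also carry retinoic acid, rose from 18112 ± 2656 to 28363 ± 1313 (SD, n = 3; log2 0.66, SE 0.12, limma adjusted p = 0.00241). Rbp7, a retinol binding protein of fat tissue endothelium and adipocytes, fell from 4045 ± 1186 to 1224 ± 199.7 (SD, n = 3; log2 -1.68, SE 0.20, limma adjusted p = 2.5e-04). It moved beside the endothelial markers, 13 of 13 of which fell, and the part of endothelial content in it was not tested. Ttr, the plasma partner of RBP4, read 8.31, 36.5 and 10.5 in WT and 94.7, 247.5 and 22.6 in CNOT3KO, and did not pass (limma adjusted p = 0.0554). Stra6l, a relative of Stra6 that also takes up retinol, was under the filter and untested, but read 3.78, 7.21 and 8.95 in WT and 75.5, 96.0 and 49.3 in CNOT3KO.

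Of 6 tested genes of ester storage and release, 2 fell and 4 did not pass, among them the hormone-sensitive lipase Lipe at a log2 difference of -0.02 and Lpl at -0.10. Ces1f, a carboxylesterase, fell from 9667 ± 2307 to 3631 ± 1353 (SD, n = 3; log2 -1.44, SE 0.24, limma adjusted p = 0.00135), by a probe set of the _s_at kind, which can read related esterases too. Ces1d, a carboxylesterase of adipocytes with retinyl ester hydrolase activity, fell by 0.47 on the log2 scale (limma adjusted p = 0.0228), or by 0.93 with its probe sets averaged. The call of Ces1d was lost without WT mouse 1 (-0.33) or 2 (-0.46), without CNOT3KO mouse 1 (-0.47) or 2 (-0.46), with no filter (-0.47) and with quantile normalization (-0.46). Lrat, the main retinol esterifying enzyme, was under the filter at 16.5 ± 4.71 and 19.9 ± 8.56 (SD, n = 3).

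The other enzymes that interconvert retinol and retinal held 3 rises, 1 fall and 5 genes that did not pass, of 9 tested. Adh1, an alcohol dehydrogenase that oxidises retinol, rose from 10537 ± 289.8 to 15515 ± 1720.1 (SD, n = 3; log2 0.55, SE 0.11, limma adjusted p = 0.00303). Adh4, a related enzyme, read 34.7, 70.4 and 19.04 in WT and 102, 100.1 and 119 in CNOT3KO (log2 1.10, limma adjusted p = 0.0147), a size that went from 1.54 to 0.61 with the offset. Dhrs7, a short-chain dehydrogenase, fell to 0.581 of WT on the offset scale (log2 -0.78, limma adjusted p = 0.00105). Rdh13, a mitochondrial relative of Rdh11, rose by log2 0.43 (limma adjusted p = 0.0196). Its call was lost without WT mouse 2 (0.44) or 3 (0.39), without CNOT3KO mouse 1 (0.44) or 2 (0.36) and centred on ribosomal protein genes (0.41). Rdh14, the other close relative on the array, read 0.20 and was not called. The log2 differences of Rdh11 (3.04) and Rdh12 (5.64) lay above those of their tested relatives Rdh13 and Rdh14. Rdh11 and Rdh12 were selected on these arrays and the relatives were not, so a gap can follow from the selection. The gap was not tested.

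Among 5 tested genes of retinoic acid synthesis and breakdown outside the members, 1 rose, 1 fell and 3 did not pass. Cyp1b1, a cytochrome P450 that can oxidise retinol, rose from 1264 ± 183 to 3349.7 ± 428 (SD, n = 3; log2 1.39, SE 0.14, limma adjusted p = 9.0e-05). Aldh1a2, the third retinal dehydrogenase, read 392 ± 30.5 and 422 ± 3.95 (SD, n = 3; log2 0.10) and Aldh1a7, a close copy of Aldh1a1, read 0.21, neither called. Cyp2s1 fell by 0.70 on the log2 scale (limma adjusted p = 0.028), a call lost without WT mouse 2 (-0.55) or 3 (-0.61), without CNOT3KO mouse 1 (-0.71) or 3 (-0.64) and with no filter (-0.70). Cyp26b1, which degrades retinoic acid, read 373, 18.2 and 92.2 in WT and 70.5, 46.5 and 47.4 in CNOT3KO, a spread set by WT mouse 1. Cyp26a1 stayed between 3.06 and 11.8 on all 6 arrays.

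Of the nuclear receptor genes, Rxra alone was called among 5 tested. It fell from 1777, 1806 and 1605 in WT to 1002, 821 and 805 in CNOT3KO (log2 -0.97, SE 0.12, limma adjusted p = 2.6e-04), and read -0.68 with its probe sets averaged. Rarb, Rarg, Rxrb and Rxrg had log2 differences of 0.32, -0.11, 0.05 and 0.04 and were not called. Rara was under the filter.

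**Figure D4:**
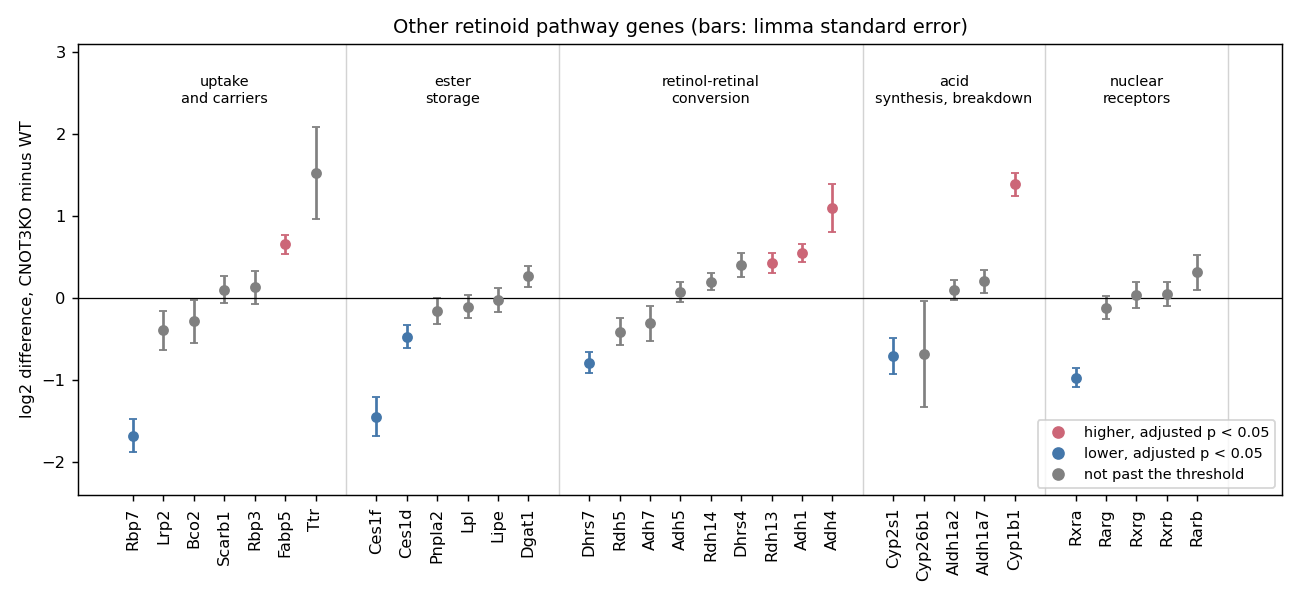
Log2 difference (CNOT3KO minus WT) of the 32 tested pathway genes outside the members, by role, with limma standard errors as bars. Genes called higher are red, those called lower blue and the others grey. The values run from -1.68 (Rbp7) to 1.52 (Ttr, not called).

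Genes known to respond to retinoic acid, a list of 22 with 12 tested, went both ways. Of these 2 rose and 4 fell, where 40.1% of all tested genes were called in either direction, with a median log2 difference of -0.15. Rarres1, a retinoic acid receptor responder, read 147, 177 and 160 in WT and 1261, 557 and 1506 in CNOT3KO (log2 2.51, SE 0.30, limma adjusted p = 2.4e-04). Its lowest knockout value was again in mouse 2, at 50.3% of the knockout mean, below the share seen for Rdh11 and Rdh12. Tgm2, transglutaminase, rose by log2 0.36 (limma adjusted p = 0.0173), a call lost without WT mouse 2 (0.34) or CNOT3KO mouse 2 (0.31) and centred on the median of tested genes (0.27).

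Pck1, a kinase of glyceroneogenesis whose promoter responds to retinoic acid, fell from 16711 ± 660.4 to 5799 ± 741 (SD, n = 3; log2 -1.53, SE 0.11, limma adjusted p = 2.1e-05). Sox17, an endothelial transcription factor as well as a retinoic acid target, fell by 1.12 on the log2 scale (limma adjusted p = 9.5e-05), or by 0.73 with probe sets named _x_at or _s_at set aside, beside the endothelial markers. Nrip1, a nuclear receptor corepressor, and Rarres2, the gene for chemerin, also fell, by 0.77 and 0.50 on the log2 scale. Rarb, Cyp26b1, Stra8, Meis1, Meis2 and Asb2 were not called, and Crabp2, Lrat and Cyp26a1 were under the filter. Ucp1, which retinoic acid can induce, was under the filter as well, yet read 4.87, 8.90 and 5.74 in WT and 43.9, 73.3 and 112 in CNOT3KO. Tbx1, another target under the filter, was separated the other way, at 64.3, 78.8 and 56.8 in WT and 34.4, 34.2 and 5.32 in CNOT3KO.

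Of the 17 pathway genes under the filter, 3 had all knockout arrays above all WT arrays and 1, Hsd17b6, had them below. Over all single-gene probe sets these shares were 18.4% and 18.5%, but those include bright probe sets. The share among dim probe sets was not computed, so the count has no like background. Beside Stra6l the genes above WT were Rdh9, at 24.5 ± 17.8 and 70.3 ± 3.21, and Aldh8a1, at 18.1 ± 23.05 and 63.8 ± 15.7 (SD, n = 3). All signals of these dim genes lay near the level where MAS5 values scatter most, and they were not tested.

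The genes whose 6 arrays ran most like Rdh12 were found by root mean square distance on the log2 scale, after centring each gene on its WT mean. Over the 6 arrays Olr1, a scavenger receptor, was nearest at 0.37, followed by Atp6v0d2 at 1.04, Ubd at 1.09, Trem2 at 1.11 and Gpnmb at 1.11. The distance mainly ranks genes by the size of their rise. The 3 knockout mice read 2132, 1713 and 2147 in Olr1 and 1616, 1254 and 1550 in Trem2, with mouse 2 lowest in both. In Ubd mouse 2 was in the middle, at 3315, and in Atp6v0d2 and Gpnmb it was the highest, at 3803 and 6827.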

How the data were processed

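Biotin labelling started from 500 ng of RNA per fat pad, by the labels' protocols. The authors deposited 1 linear intensity for each probe set on each array, computed by MAS5 according to GEO's list of the submitters' tools; detection calls and scaling settings were not used here. Groups and mouse numbers came from the sample titles, which number separate mice in each group. Of 45037 probe sets 34945 named 1 gene in the platform annotation, 932 several and 9160 none here. Each gene was represented by its brightest such probe set. limma (3.58.1, R 4.3.3) with lmFit and eBayes with trend was fitted to all tested genes, two-sided, and checked on simulated data. SEs of member probe sets come from a like fit over all single-gene probe sets past the filter. Python 3.11.15 was used for the rest.

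Members and lists were chosen with earlier results of these data known. Named genes were all members, pathway and target genes past the threshold (values for up to 3 per role), the brightest where none passed, the 5 genes nearest to Rdh12, and Cnot3, Adipoq and Lep. Further genes given with values, the chromosomal neighbours among them, were chosen after their values were seen. Same-numbered mice had deviations correlated at 0.07, 0.11 and 0.04, so the numbers were not used to pair them. The number of arrays limits the precision.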

Additional observations from a re-analysis of the deposited data

How the results depend on the processing

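The 5 member calls of Rbp4, Rdh11, Rdh12, Aldh1a1 and Aldh1a3 kept direction and call under all 19 alternatives. As the members were selected on these arrays, this describes the processing only and is no support for their differences. Counts over all genes stayed within 1.5 times of the reported ones, between 2199 and 2676 higher and 1556 and 1978 lower without 1 array. The pathway list had 5 higher genes, and 8 with no filter and 8 with array weights; it had 4 to 7 higher and 4 to 5 lower without 1 array. The target list had 2 higher genes and 1 when centred on the median of tested genes, with 1 to 2 higher and 4 to 5 lower without 1 array. Adipoq, never called, changed sign with quantile normalization (0.0415) and without 1 array (from -0.265 to 0.0707, the latter without WT mouse 3). With the mouse number as a block, 2910 genes were higher and 2182 lower, and Rdh10 gained its call (-0.39). Each mouse's deviations correlated best with those of its own number, but only at 0.07, 0.11 and 0.04. The labels give no pairing, and these values do not establish one. The causes of these changes were not tested. Signals near background limit Rdh12 in WT, Stra6 and Crabp1.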
